A study of Mus musculus with 2 samples.

Results

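C1q-positive cells were a small group among mouse bone marrow cells that had been cultured with human mesenchymal stromal cells (MSC). They were picked from the single-cell library of that coculture by their own transcript counts. A cell barcode was kept when it held at least 500 genes and at most 10% mitochondrial unique molecular identifiers (UMIs, each standing for 1 captured RNA molecule). A kept barcode counted as C1q-positive when C1qa, C1qb and C1qc together gave at least 5 UMIs. S100a8 with S100a9 had to stay below 0.5% of its UMIs, and Prg2 with Epx and Prg3 below 1%. The rule found 66 of the 3005 kept coculture barcodes, which is 2.20% (exact 95% binomial interval 1.70% to 2.79%), out of 4822 kept barcodes in both libraries of the study. Since C1q, the S100 genes and the granule genes chose these cells, their levels are given below as description only.

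The coculture group was femoral bone marrow of C57BL/6NCrljOri mice (H-2b) grown for 5 days with the growth factor GM-CSF at 40 ng/mL, with human MSC held above it in inserts of 0.4 µm pores at 1 MSC to 5 marrow cells. The MSC had been seeded for 24 h beforehand. From this culture, cells with middle levels of the surface proteins CD11b and Ly6C were sorted. The group without coculture was marrow of the same strain given the same GM-CSF, sorted for high CD11b and high Ly6C. The protocols name DMEM for the coculture and RPMI1640 for the marrow culture. Each group is 1 library, so no test between groups is possible. MSC coculture, sort gate, medium and library cannot be told apart in any comparison between the libraries. The labels do not give the age, sex or number of mice.

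The coculture library held 29217182 UMIs over 3134 barcodes and the library without coculture 28294186 UMIs over 2180 barcodes. The 66 C1q-positive cells carried between 1219 and 64954 UMIs each, with a median of 13635.5, and a median of 3456 genes. The other 2939 coculture cells had a median of 5872 UMIs. The libraries shared 4 barcodes, none of them among the C1q-positive cells. For each set of cells UMIs were summed and scaled to CPM (counts per 1000000 UMIs of the set), and intervals cover counting error only. Genes with at least 10 CPM in either of 2 sets are called measured, and a ratio of at least 2-fold is called higher or lower.

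C1q is the recognition molecule of the classical complement pathway, assembled from A, B and C chains encoded by C1qa, C1qb and C1qc. It binds antibody complexes, pentraxins and the surface of dying cells. Unlike most complement proteins, which come from the liver, it is made mainly by macrophages and by some dendritic cells. Macrophages are phagocytes that clear dying cells, and GM-CSF drives marrow progenitors towards granulocytes, macrophages and dendritic cells.

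In the mouse build GRCm38 (mm10) the chain genes lie side by side on the minus strand of chromosome 4, with C1qb at 136880129 to 136886187, C1qc at 136889804 to 136893065 and C1qa at 136895917 to 136898803. Plet1, the gene of a surface protein of placental and epithelial progenitors, lies on the plus strand of chromosome 9 at 50494525 to 50505482. Ccl24, the gene of the eosinophil attractant eotaxin-2, lies on chromosome 5 at 135569937 to 135573049. Upstream sequence is shown for C1qb, the chain found in most cells, and for Plet1, a marker that did not enter the rule. Each run is the 250 bases before the RefSeq gene start (GRCm38.p6), written 5′ to 3′ on the gene's strand, chr4:136886201-136886450 (minus) for C1qb and chr9:50494275-50494524 (plus) for Plet1. Capitals mark matches to 2 short motifs searched on both strands, GAGGAA (a core of PU.1 sites) and TGANTCA (AP-1).
C1qb: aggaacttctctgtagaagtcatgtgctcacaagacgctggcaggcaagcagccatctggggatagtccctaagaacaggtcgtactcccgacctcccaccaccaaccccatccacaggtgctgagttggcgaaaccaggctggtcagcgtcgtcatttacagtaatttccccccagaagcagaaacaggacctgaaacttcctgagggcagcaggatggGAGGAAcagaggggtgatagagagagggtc
Plet1: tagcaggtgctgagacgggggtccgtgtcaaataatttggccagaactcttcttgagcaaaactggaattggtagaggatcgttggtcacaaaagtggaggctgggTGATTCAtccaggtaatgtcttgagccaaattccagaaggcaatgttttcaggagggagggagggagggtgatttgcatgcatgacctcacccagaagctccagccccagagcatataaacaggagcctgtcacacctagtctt
With the gene start as position 0, the C1qb window held the PU.1 core at -30 and the Plet1 window the AP-1 motif at -144. Among all 32851 windows of this length, 23.3% held GAGGAA and 6.75% held TGANTCA. Spi1, which encodes PU.1, stood at 478 CPM in the C1q-positive cells.

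The C1q chains were abundant in the chosen cells. C1qb had 0 to 120 UMIs per cell with a median of 24.5, C1qa 0 to 162 with a median of 12, and C1qc 0 to 72 with a median of 11. Summed, C1qb reached 2146 CPM, C1qa 1820.3 CPM and C1qc 1171 CPM. All 3 chains were found together in 54 of the 66 cells. The cells stood well above the limit: 57 held at least 10 C1q UMIs, and just inside it 3 had exactly 5 and 2 had exactly 6. Just outside, with the other limits passed, 2 barcodes had exactly 4 C1q UMIs and 3 had exactly 3. No C1q UMI was seen in 2829 of the kept coculture barcodes. C1qb gave a UMI in 98.5% of the C1q-positive cells and in 0.928% of 970 B lineage cells of the same library, which should lack the gene, at median depths of 13635.5 and 2950 UMIs. The share in the C1q-positive cells follows largely from the rule that chose them.

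Among the cells chosen by these genes, the summed mix of chains differed between the 2 libraries. C1qa made up 35.4% of the C1q UMIs in the coculture cells (34.2% to 36.7%), against 15.1% (14.2% to 16.0%) in the 173 cells that met the same rule without coculture. These intervals take UMIs as independent and leave out the spread between cells. In the coculture, 7 cells held 43.6% of the C1qa UMIs. C1qb made up 41.8% in the coculture cells, against 57.1% in the C1q-positive cells without coculture. C1qc made up 22.8% in the coculture cells, against 27.8% without coculture. C1qa exceeded C1qb in 17 of the 66 coculture cells, against 9 of 173 without coculture. A further 38 coculture barcodes reached the C1q minimum but were set aside, 37 by the S100 limit and 1 by the granule limit. Their C1qa share was 33.6%, and they stayed among the other coculture cells in the comparisons below. Within the coculture cells the C1qa share ran between 18.1% and 40.2% over the 4 groups described below. It was 27.4% in the 15 cells with fewer than 3 UMIs of each other lineage's gene set.

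**Figure D1:**
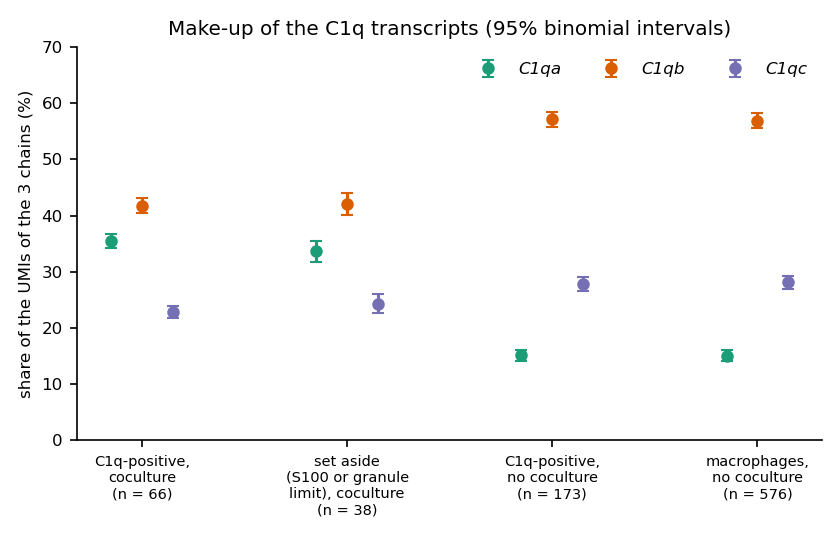
The vertical axis gives each chain's share (%) of the UMIs of C1qa, C1qb and C1qc, for C1q-positive coculture cells, coculture cells set aside by the S100 or granule limit, and 2 sets without coculture. Bars are exact 95% binomial intervals over UMIs and leave out the spread between cells. C1qa lies at 35.4% and 33.6% in the coculture sets and at 15.1% in the C1q-positive cells without coculture.

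The label of macrophage was checked against marker lists. Against the other coculture cells, 13 of 15 measured macrophage markers were higher and 0 were lower, with a median log2 ratio of 2.69. Over all 8628 measured genes 9.64% were higher and 14.0% lower, with a median of -0.12; the rule used this contrast, so the shares are description. Csf1r, the receptor for macrophage colony-stimulating factor, stood at 360 CPM against 54.8 CPM in the other coculture cells. Adgre1, which encodes F4/80, stood at 328 against 55.2 CPM, and Fcgr1, the high-affinity IgG receptor, at 136 against 5.21 CPM. Mertk, a receptor for dying cells, stood at 24.8 against 1.25 CPM in the other coculture cells. Markers of several resident macrophage types were absent, with 0 UMIs of Cd163, Marco, Timd4 and Siglec1.

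Some genes shared with dendritic cells were also high. Mgl2, a lectin of dermal dendritic cells and of alternatively activated macrophages, was found in 81.8% of the cells and stood at 1286 CPM against 61.4 CPM in the other coculture cells. Clec10a, a related lectin, stood at 154 against 16.0 CPM, and Itgax, which encodes CD11c, at 96.5 against 5.24 CPM. Flt3, the growth factor receptor that marks the dendritic lineage, had 0 UMIs, which allows up to 2.87 CPM at a floor of 3 UMIs. Zbtb46, a factor of conventional dendritic cells, had 0.955 CPM. Over the whole dendritic cell list, 8 of 11 measured markers were higher than in the other coculture cells and 0 lower. The listed dendritic cell markers summed to 18159 CPM in the C1q-positive cells, against 22531 CPM in mature dendritic cells and 5215 CPM in the other coculture cells. This list includes Cd74 and H2-Aa, which other antigen-presenting cells also express. Macrophage markers summed to 6995 CPM in the C1q-positive cells, 596 CPM in mature dendritic cells and 1362 CPM in the other coculture cells. Since markers of both types were present, the cells are called C1q-positive here rather than by a cell type.

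**Figure D2:**
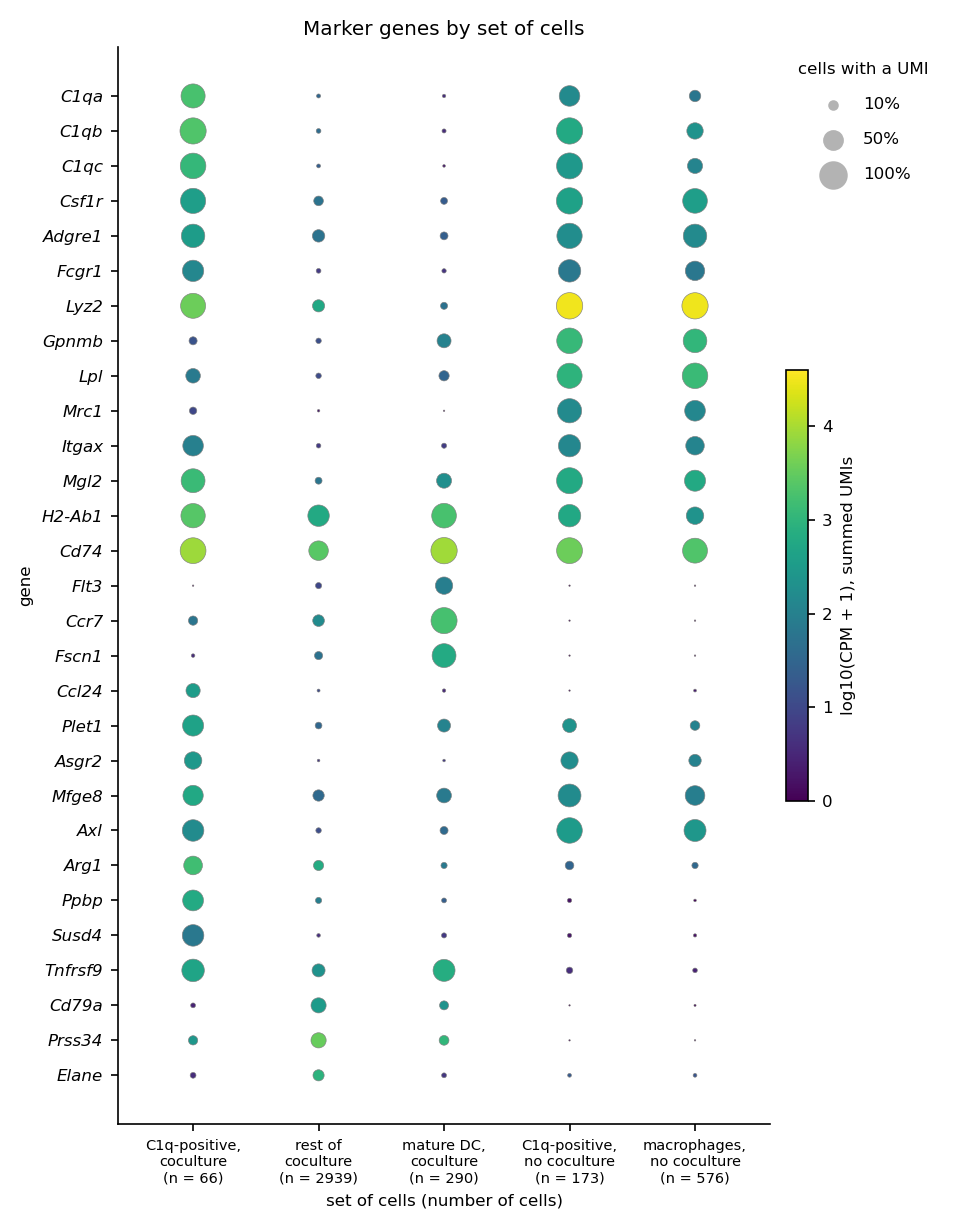
Each row is a gene and each column a set of cells; dot area gives the share of cells with a UMI (%) and colour gives log10(CPM + 1) of summed UMIs. Csf1r, Adgre1 and Fcgr1 are high in the C1q-positive coculture cells and in both sets without coculture, while Flt3, Ccr7 and Fscn1 are high in mature dendritic cells.

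Set against the other coculture cells, the highest ratio among genes with at least 50 CPM and UMIs in at least 10% of the cells belonged to Asgr2, a hepatic and macrophage lectin, with a log2 ratio of 5.97 (5.66 to 6.28). It stood at 286 CPM against 4.56 CPM, and was found in 29 of the 66 cells, of which 7 held 77.6% of its UMIs. Ccl24 came second at 335 against 10.3 CPM (log2 ratio 5.03). It had 0 to 157 UMIs per cell and was found in 19 of the 66 cells, of which 3 held 70.1% of its UMIs and 7 held 91.2%. Plet1 was spread more widely, with 0 to 35 UMIs per cell, a median of 3.5 and 454 against 32.0 CPM (log2 ratio 3.83). It was found in 42 cells. The third highest ratio was of Fcrls, an Fc receptor-like gene of microglia, at 97.4 CPM (log2 ratio 4.97). Ptx3, a pentraxin that C1q binds, stood at 104 against 3.42 CPM. Mfge8, a bridging protein between dying cells and phagocytes, stood at 581 against 35.9 CPM, with 62.2% of its UMIs in 3 cells. Fcgr1, Mgl2 and Itgax, given above, were among the 15 highest, and Qpct, Klk1b9, Susd4, Ppfia4, Klk1b11, Plbd1 and P2ry6 completed them, with log2 ratios of 4.09 (P2ry6) to 4.70 (Qpct). Reads of the Klk1b family can be shared among near-identical copies. The lowest ratios were of granule proteins of neutrophil progenitors (Elane, Ctsg, Prss57, Ngp) and the progenitor marker Ms4a3. B cell genes (Igkc, Iglc2, Cd79a), the mast cell protease gene Cpa3 and Rnase12 were also among the lowest. Elane stood at 2.87 against 899 CPM, and Ngp had 0 UMIs against 760 CPM.

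Complement genes outside the rule also stood high. Of 11 measured complement genes other than the C1q chains, 6 were higher and 1 lower than in the other coculture cells. Properdin, the activator of the alternative pathway encoded by Cfp, had 0 to 54 UMIs per cell with a median of 10, was found in 97.0% of cells and stood at 708 against 112 CPM. The anaphylatoxin receptors C5ar1 and C3ar1 stood at 189 against 52.8 CPM and at 102 against 26.7 CPM. Itgam, which encodes both the sorted protein CD11b and a chain of complement receptor 3, stood at 513 against 130 CPM. C3 itself was 141 against 107 CPM, between the limits. Cd55, which dissociates the C3 convertase, was the lower gene at 5.73 against 218 CPM. No UMI was found for C1s1, C2, C4b, Cfb or Serping1, and C1ra had 9.55 CPM. At this depth a gene at 0 may still have up to 2.87 CPM.

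Antigen presentation through MHC class II was the next group. Of 13 measured genes, 10 were higher than in the other coculture cells and 1 was lower, with a median log2 ratio of 1.56. Cd74, the invariant chain, stood at 8572 against 2593 CPM and H2-Ab1 at 2469 against 588 CPM. The lower member was H2-Ob, a modulator of peptide loading that B cells express, at 27.7 against 60.1 CPM. H2-Ab1 UMIs varied between 0 and 171 per cell with a median of 23.5. Among genes for the uptake of dying cells, 7 of 13 were higher and 1 lower. The receptor kinase Axl stood at 160 against 11.4 CPM, and the lower gene was the integrin Itgb3. Of 18 genes of alternative activation 10 were higher and 3 lower. Arg1 (arginase 1) stood at 1569 against 655 CPM, with 0 to 369 UMIs per cell. Its log2 ratio of 1.26 turned to -1.31 when 51 cells with at least 3 UMIs of another lineage's gene set (given below) were left out. Of these, 48 reached that minimum with Pf4 and Ppbp. All 18 cells of group 2, described below, were among the 51, and Arg1 stood at 3471 CPM in that group. Retnla stood at 69.7 against 1.46 CPM, but all 73 Retnla UMIs came from 1 cell. Cell cycle genes ran the other way, with 0 of 28 S phase genes higher and 20 lower, and 0 of 35 G2/M genes higher and 15 lower.

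Mature dendritic cells of the same library gave the closest comparison in antigen presentation. This set held 290 coculture cells with at least 5 UMIs over Ccr7, Fscn1 and Ccl22 under the same S100 limit; 29 of them also held B lineage transcripts, and 2 of the 66 C1q-positive cells reached that minimum too. Over 8658 measured genes, 14.4% were higher and 16.5% lower in the C1q-positive cells. MHC class II genes were close in sum, with 4 of 13 higher, 2 lower and a median log2 ratio of -0.01. Cd74 stood at 8572 CPM in the C1q-positive cells, against 8652 CPM in the mature dendritic cells. H2-Aa was lower at 2740 against 4585 CPM but within the 2-fold limit, and H2-DMa, which helps load peptide, was higher at 705 against 297 CPM. The transactivator Ciita stood at 57.3 against 128 CPM, a log2 ratio of -1.16 that became 0.075 without the same 51 cells. MHC class I and peptide loading genes differed more, with 0 of 15 higher and 9 lower; B2m stood at 471 against 1705 CPM.

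The C1q-positive cells carried receptor and phagocyte genes that the mature dendritic cells had at low levels. All 6 measured Fc receptor genes were higher, led in level by Fcer1g at 1818 against 244 CPM and Fcgr3 at 838 against 62.5 CPM. Pattern recognition receptors were higher in 11 of 12 cases and lower in 1, with Clec4n (Dectin-2) at 1558 against 67.8 CPM. Lysosomal genes were higher in 16 of 24 cases and lower in 0. The highest ratios outside the rule also included the elastase Mmp12 at 1246 against 23.2 CPM and Msr1 (scavenger receptor A) at 117 against 2.62 CPM. Lyz2, which encodes lysozyme, stood at 3616 against 50.7 CPM. Lower were the chemokine Ccl5 at 5.73 against 2139 CPM and the lineage factors Irf8 at 158 against 1849 CPM and Batf3 at 14.3 against 200 CPM. Of the chosen list of mature dendritic cell markers 13 of 14 were lower and 0 higher, which the choice of the set by Ccr7, Fscn1 and Ccl22 partly fixes.

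Without coculture the same rule found 173 of 1817 kept barcodes, or 9.52% (8.21% to 11.0%), against 2.20% in the coculture. Those cells were deeper, with a median of 25801 UMIs. With every cell thinned to 2000 UMIs and a C1q minimum of 2, the counts were 60 in the coculture and 86 without it. Over 8393 measured genes 7.91% were higher and 12.6% lower in the C1q-positive coculture cells, with a median log2 ratio of -0.15. When the 51 coculture cells with at least 3 UMIs of another lineage's genes were left out, 15 cells were left. The cells without coculture were not filtered in this way, although 66 of the 173 also reached 3 such UMIs. The higher genes then numbered 1059 in place of 664, and the lower genes 1535 in place of 1059. Counting error is larger over 15 cells, and its part in both rises was not tested.

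Lineage transcripts were close between the C1q-positive cells of the 2 libraries for some genes and far apart for others. Csf1r stood at 360 CPM with coculture and 424 CPM without, Spi1 at 478 with and 530 CPM without, and Irf8 at 158 with and 169 CPM without. Of 16 measured macrophage markers 0 were higher and 7 lower in the coculture cells. Lyz2 was lower at 3616 against 32178 CPM, Gpnmb (a lysosomal glycoprotein of lipid-laden macrophages) at 14.3 against 1183 CPM, Lpl (lipoprotein lipase) at 74.5 against 946 CPM and Mrc1 (mannose receptor) with a log2 ratio of -4.11. Of 66 coculture cells 7 held at least 5 UMIs over Mrc1, Lpl and Gpnmb, against 164 of the 173 cells without coculture. Some C1q-positive cells without coculture also had little Lyz2 and no Gpnmb. For example, 1 held 2 Lyz2, 207 H2-Ab1 and 92 Asgr2 UMIs, and another held 2, 194 and 46.

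**Figure D3:**
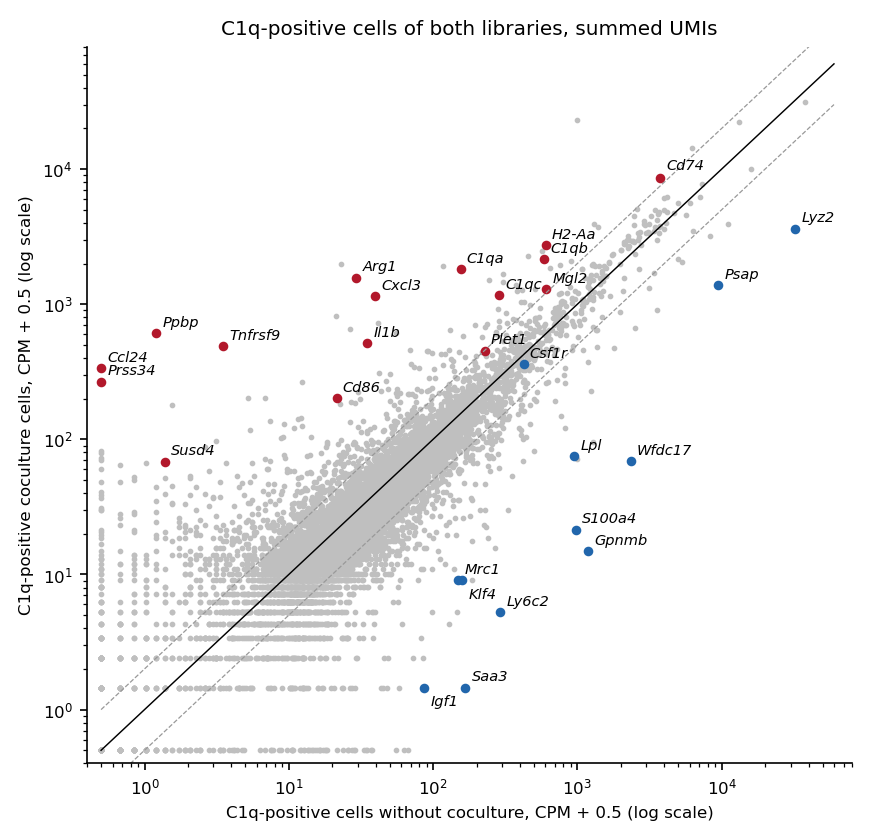
Each point is a gene measured in any comparison, with CPM + 0.5 in C1q-positive coculture cells on the vertical log axis and in C1q-positive cells without coculture on the horizontal log axis; the solid line marks equality and the dashed lines 2-fold. Named genes include Ppbp, Ccl24, Arg1 and Tnfrsf9 above the lines and Lyz2, Gpnmb, Lpl and Saa3 below them.

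Chemokine genes lay on both sides. Of 14 measured chemokine genes 7 were higher and 6 lower in the coculture cells. Ppbp, a neutrophil-attracting chemokine best known from platelets, had the highest ratio at 612 against 0.703 CPM (log2 ratio 9.77, 8.40 to 11.65), and was found in 41 of 66 cells. Ccl24 had 351 UMIs in the coculture cells and 0 in the C1q-positive cells without coculture, at least 636-fold higher against a floor of 3 UMIs over the group. It was not absent from that library. In 90 barcodes without coculture set aside by the S100 limit it stood at 3.07 CPM, with a UMI in 3.33% of them. Against the C1q-positive cells without coculture, the neutrophil chemokine Cxcl3 stood at 1147 against 39.0 CPM and Il1b (interleukin 1 beta) at 516 against 34.3 CPM. Lower were the monocyte chemokine Ccl2 with a log2 ratio of -3.73 and Ccl6 at 3933 against 11107 CPM. Several of these were also high in the other cells of the coculture library: Cxcl3 stood there at 848 CPM and Pf4, at 1904 CPM in the C1q-positive cells, at 1812 CPM. Pf4 was one of the genes that defined the 51 cells with other lineages' genes, and without them its log2 ratio of 4.03 turned to -1.23. The cells without coculture were not filtered by Pf4, so this choice of cells lowers the ratio by construction.

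Surface and enzyme genes of immune regulation followed. Tnfrsf9, which encodes the costimulatory receptor 4-1BB, stood at 492 against 2.99 CPM and was found in 48 of 66 cells. Cd86, the costimulatory ligand, stood at 202 against 20.9 CPM. Of 15 genes associated with suppressive myeloid cells 8 were higher and 1 lower. Arg1 stood at 1569 against 28.8 CPM, Nos2 (inducible nitric oxide synthase) at 47.8 against 0.176 CPM and Nt5e (CD73, which forms adenosine) at 101 against 8.26 CPM. The lower gene was Cybb, a subunit of the phagocyte oxidase. Of the 66 cells, 33 held an Arg1 UMI and 13 a Nos2 UMI, and 7 cells held 70.9% of the Arg1 UMIs. In group 1, described below, Arg1 stood at 38.6 CPM and Nos2 was not detected. Arg1 and Nos2 were not particular to the C1q-positive cells. In 312 coculture barcodes with at least 2% S100 UMIs and fewer than 5 C1q UMIs they stood at 2293 and 79.9 CPM. Hmox1, heme oxygenase 1, stood at 440.3 CPM, against 150 CPM in the C1q-positive cells without coculture. The aryl hydrocarbon receptor gene Ahr stood at 209 against 55.9 CPM and its target Cyp1b1 at 51.6 against 0.879 CPM. MHC class II genes were again higher in 10 of 13 cases and lower in 1, with a median log2 ratio of 2.13. This did not hold in sum for all 4 groups of C1q-positive coculture cells described below. The 13 genes summed to 31464 CPM in group 1 and 25381 CPM in group 4. They summed to 8423 CPM in group 2 and 7214 CPM in group 3, against 9748 CPM in the C1q-positive cells without coculture. H2-Ab1 stood at 2469 against 564 CPM, and the lower gene was the protease Ctss at 1309 against 3145 CPM. Glycolysis and hypoxia genes were higher in 8 of 22 cases and lower in 0, with Egln3 at 182 against 22.0 CPM and Bnip3 at 225 against 42.9 CPM. In the other coculture cells these genes stood at 127 and 173 CPM.

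The remaining highest ratios were of genes outside these lists. Unc5b, a netrin receptor, stood at 64.0 against 0.176 CPM, Hic1, a transcriptional repressor, at 52.5 against 0.352 CPM and Susd4, a complement inhibitor gene, at 67.8 against 0.879 CPM. Cd34 stood at 66.9 against 0.527 CPM and Asb2, a ubiquitin ligase subunit, at 202 against 4.75 CPM. Ablim1 stood at 86.9 against 2.11 CPM. Gm5483, of the near-identical stefin A family, stood at 1979 against 22.3 CPM and at 1665 CPM in the other coculture cells. Prss34, Mcpt8 and Ccr7 also met the rule for the highest ratios, but 98.2%, 94.1% and 90.5% of their UMIs came from 3 cells each. Ifitm1, an interferon-induced membrane protein gene, was among the most abundant transcripts of the C1q-positive coculture cells with 22954 against 1000 CPM without coculture. It stood at 11391 CPM in the other coculture cells and 13716 CPM in the mature dendritic cells.

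Lysosomal and lipid genes lay mostly on the lower side or within the limits. Of 26 lysosomal genes 15 were lower and 1 higher in the coculture cells, with a median log2 ratio of -1.24. Psap, which encodes prosaposin, stood at 1385 against 9432 CPM, Ctsb at 227 against 1237 CPM and Ctsd at 905 against 3550 CPM, while Ctsl was higher at 1276 against 412 CPM. Of 16 lipid handling genes 6 were lower and 1 higher, with Abcg1, a cholesterol exporter, at 15.3 against 267 CPM and Fabp5 at 94.6 against 1290 CPM. Abca1, another exporter, was the higher gene at 85.0 against 31.3 CPM (log2 ratio 1.44), and its log2 ratio was -0.65 without the 51 cells. Cholesterol synthesis genes did not pass 2-fold in any of 23 cases. Of 15 genes for the uptake of dying cells 7 were lower and 2 higher. Gas6, the bridging ligand of Axl and Mertk, had 0 UMIs in the coculture cells against 28.5 CPM, at least 9.94-fold lower; Axl stood at 160 against 315 CPM, within the limit, and Mfge8 was higher at 581 against 161 CPM. The 10 lowest ratios were of Saa3, Igf1, Gpnmb, Ly6c2, Nrp1, S100a4, Fxyd2, Gpx3, Wfdc17 and Syngr1. The acute phase gene Saa3 stood at 0.955 against 167 CPM and the growth factor Igf1 at 0.955 against 86.3 CPM. Wfdc17 stood at 68.8 against 2339 CPM. Ly6c2, a gene of the sorted protein Ly6C, stood at 4.78 against 291 CPM. Among lineage factors Bhlhe41 had 0 UMIs against 62.1 CPM and Klf4 had a log2 ratio of -4.21, whereas Runx3 was higher at 271 against 46.9 CPM.

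**Figure D4:**
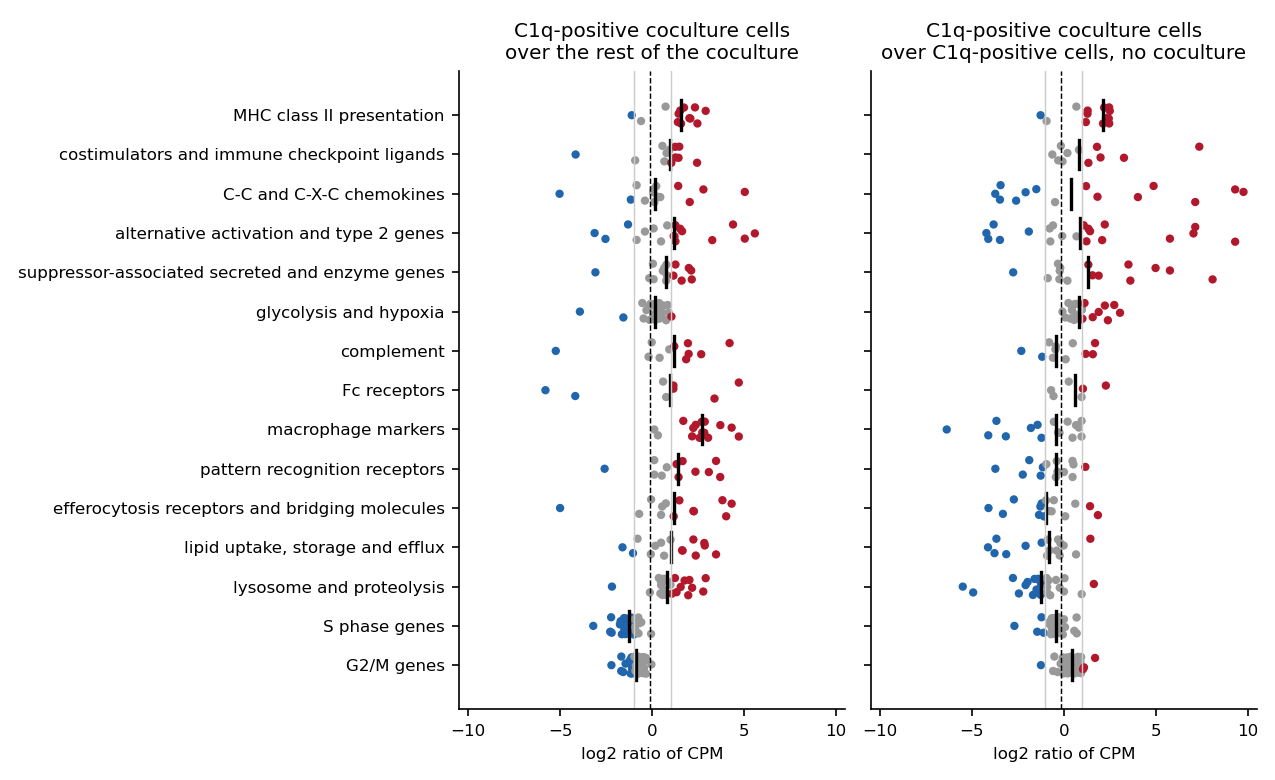
Each dot is a measured gene (C1q chains left out) placed by its log2 ratio of CPM, in red at 2-fold or more higher and in blue at 2-fold or more lower in C1q-positive coculture cells, over the rest of the coculture (left) and over C1q-positive cells without coculture (right). Black bars are list medians and the dashed line is the median of all measured genes (-0.12 and -0.15); most MHC class II genes lie to the right in both panels, and lysosomal genes have medians of 0.81 and -1.24.

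Against all 576 macrophages without coculture, chosen by at least 5 UMIs over Mrc1, Lpl and Gpnmb, 7.93% of 8348 measured genes were higher and 11.7% lower. This set shares 164 cells with the C1q-positive cells without coculture and is no separate evidence. MHC class II genes had a median log2 ratio of 2.86, with 10 of 13 higher and 1 lower. Plet1 stood at 454 against 111 CPM, and at 227 CPM in the C1q-positive cells without coculture. Asgr2 stood at 286 against 104 CPM and Axl at 160 against 274 CPM. Of 26 lysosomal genes 15 were lower and 2 higher.

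The C1q-positive coculture cells were not uniform. Clustering on 1000 variable genes gave 4 groups, which are described here without a test because the same genes formed them. Group 1, of 30 cells, had the most C1q, with a median of 88 C1q UMIs per cell, and led in MHC class II, whose 13 listed genes summed to 31464 CPM. Its leading genes included Adam23, Zmynd15, Ciita, Clec10a and H2-Ob. It held Mgl2 at 2118 CPM, Plet1 at 750.4 CPM in 83.3% of cells, and Asgr2 at 497 CPM. Dendritic cell markers summed to 28629 CPM and macrophage markers to 5033 CPM. Arg1 was low there, at 38.6 CPM, and Nos2 was not detected.

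In group 2, of 18 cells, Arg1 stood at 3471 CPM and was found in 94.4% of the cells. Fn1 (fibronectin) stood at 2504 CPM and Apoe at 2524 CPM. Macrophage markers summed to 8930 CPM and dendritic cell markers to 8795 CPM. Nos2, at 122 CPM, was found in 9 of the 18 cells, and MHC class II genes summed to 8423 CPM. Genes of neutrophils were higher there too. Chil3, Wfdc21, Lcn2 and Stfa2l1 were among the leading genes of group 2, and S100a8 stood at 1066 CPM, against 57.9 CPM in group 1. The listed neutrophil markers summed to 3853 CPM in group 2 and 5274 CPM in group 3, against 413 CPM in group 1 and 561 CPM in group 4; their part in the differences between groups was not tested.

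Group 3, of 10 cells, had Arg1 at 2754 CPM and Fn1 at 2368 CPM but little Plet1, Mgl2 and Axl, at 25.4, 112 and 15.2 CPM. Without the single cell highest in each gene, a check chosen after seeing the data, Arg1 stood at 1312 CPM. Lyz2 stood at 7758 CPM, and at 4359 CPM without the highest cell. By ratio to the other cells Prss34, a basophil protease gene, ranked first at 1336 CPM and Akr1c18 second at 249 CPM. A single cell held 261 of the 263 Prss34 UMIs, and Akr1c18 stood at 46.1 CPM without its highest cell. Cd200r3, a receptor of basophils and mast cells, was found in 9 of the 10 cells and stood at 188 CPM, and at 154 CPM without its highest cell. Basophil and mast cell markers summed to 2083 CPM, against 36.2 CPM in group 1, and their part in this group was not tested. The protease inhibitor gene Slpi stood at 3058 CPM and was found in all 10 cells. Lama5, Inhba, Hgf and the steroid enzyme gene Cyp11a1 were also among its leading genes, and its chain mix, with 18.1% C1qa and 60.3% C1qb, was nearest to the cells without coculture. Group 4, of 8 cells, was led by mitotic genes such as Cdkn3, Ccnb2 and Birc5, with a median of 1.11% of UMIs from cell cycle genes. H2-Ab1 stood at 3459 CPM, against 4268 CPM in group 1, and Plet1 at 668 against 750.4 CPM. Axl stood at 296 against 249 CPM. Asgr2 was low, at 22.8 against 497 CPM. Ccl24 stood at 1456 against 362 CPM, but 157 of its 192 UMIs in group 4 came from 1 cell. Without the highest cell of each group Ccl24 stood at 313 CPM in group 4 and 235 CPM in group 1. Dendritic cell markers summed to 24501 CPM and macrophage markers to 2920 CPM in group 4.

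**Figure D5:**
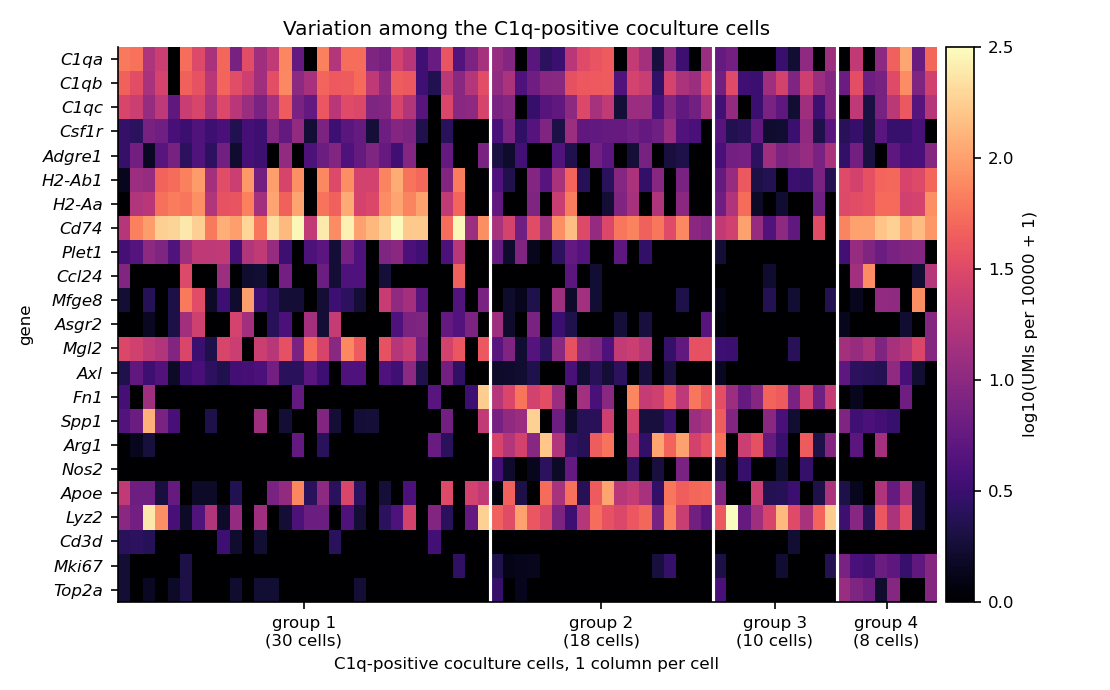
Each column is 1 of the 66 C1q-positive coculture cells, ordered by group and by depth within it, each row a gene, and colour gives log10(UMIs per 10000 + 1). Groups 1 and 4 (30 and 8 cells) carry H2-Ab1, Cd74, Plet1 and Mgl2, and groups 2 and 3 (18 and 10 cells) carry most of the Fn1 and Arg1.

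Per cell, Plet1 and H2-Ab1 ran together and Arg1 ran against both. Over the 66 cells, which share a library and differ in depth, Spearman's rho was 0.56 for Plet1 with H2-Ab1, 0.73 for Arg1 with Fn1, -0.51 for Arg1 with H2-Ab1 and -0.71 for Fn1 with H2-Ab1. Of the 33 cells with an Arg1 UMI, 13 also held Nos2, which is every cell with a Nos2 UMI. Ccl24 and Plet1 were both found in 16 cells, of 19 with Ccl24 and 42 with Plet1.

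Transcripts of other lineages were looked for in the same cells, since a droplet may hold more than 1 cell and no caller of such droplets was used. T cell genes (Cd3d, Cd3e, Trbc2) gave at least 3 UMIs in 8 cells, with a median of 7.5 UMIs, and 7 of these were in group 1. Over the whole list, 6 of 8 measured T and NK cell markers were higher and 1 lower than in the other coculture cells, with sums of 179 and 185 CPM. Basophil genes (Mcpt8, Prss34, Cpa3) reached 3 UMIs in 2 cells, 1 of which held 341 UMIs. All 12 basophil and mast cell markers summed to 436 CPM, against 6207 CPM in the other coculture cells. B lineage genes (Cd79a, Cd79b, Ebf1) reached 3 UMIs in 0 cells, and 13 B lineage markers summed to 54.4 against 2273 CPM. Pf4 and Ppbp, listed as platelet genes, gave at least 3 UMIs in 48 cells. Gp1bb, Gp9 and Gp5, which platelets also carry, were at 0. Over the whole list of 10 megakaryocyte and platelet markers, 5 were detected and 5 were not. The list summed to 2524 CPM, against 2291 CPM in the other coculture cells, with 1 of 7 measured markers higher and 5 lower. Without coculture 63 of the 173 C1q-positive cells held at least 3 UMIs over Pf4, Ppbp and Gp1bb. Progenitor genes (Elane, Prtn3, Mpo) reached 3 UMIs in 13 cells, where Prtn3 had 66 UMIs, Elane 1 and Mpo 0. At least 1 of these sets reached 3 UMIs in 51 of the 66 cells, among them all 18 cells of group 2. The eosinophil granule gene Prg2 gave 1 or more UMIs in 68.2% of the C1q-positive cells at 78.3 CPM. It also did so in 38.0% of B lineage cells, and with every cell thinned to 2000 UMIs the shares were 12.5% of C1q-positive cells and 24.7% of B lineage cells. It stood at 19557 CPM over the other coculture cells. The part of free RNA and of shared droplets in these values was not tested. Leaving out the cells with T cell or basophil genes left 56 cells and a C1qa share of 33.5%.

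Cycling was seen in a minority. Cell cycle genes made up at least 1% of UMIs in 5 of the 66 C1q-positive coculture cells (7.58%), against 10.0% of the other coculture cells and 2.89% of the C1q-positive cells without coculture. Thinned to 2000 UMIs, 4.69% of the C1q-positive coculture cells held at least 20 cell cycle UMIs, against 10.9% of the other coculture cells and 3.47% of the C1q-positive cells without coculture.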

How the data were processed

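The authors deposited raw UMI counts per gene and barcode as sparse matrices of 47729 genes, not normalized. Software version 3.1.0 is given per the file headers; Cell Ranger, bcl2fastq and mm10 per the submitters' processing notes. The labels' protocols name 3′ kits, so levels refer to transcript ends and are not compared per length. The annotation release is not given in the sources used here. Members and gene lists were chosen with earlier results of these data known.

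Barcodes were filtered as stated, UMIs summed per set in Python 3.11.15 and scaled to CPM. Intervals are exact (Poisson, Clopper-Pearson and conditional binomial, 95%). Genes named are, per comparison, the 15 highest and 10 lowest ratios with at least 50 CPM and UMIs in 10% of cells of the higher set, the given markers and the leading members of 41 gene lists. Clustering used scanpy 1.11.5 (15 components, 10 neighbours, resolution 0.5). Positions and sequences are from GENCODE M21 and RefSeq. TMM factors came from edgeR 4.0.16. Alternatives changed the C1q minimum, filters, scaling, CPM minimum and cells left out. The ratio and interval code was tested on simulated data.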

Additional observations from a re-analysis of the deposited data

Results flagged for a closer look

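Outside the C1q-positive cells, 38 kept coculture barcodes reached 5 C1q UMIs and were set aside by the S100 or granule limit. They were counted among the 2939 other coculture cells in every comparison with those cells, and held 2483 of their 2590 C1q UMIs. The 38 barcodes had a median of 57.5 C1q UMIs and 25767.5 UMIs in all. S100a8 with S100a9 made up a median of 2.81% of their UMIs, and 5 lay below 1%. They stood at 2841 CPM for Arg1, 624 CPM for H2-Ab1, 1606 CPM for Fn1, 649 CPM for Ppbp and 144 CPM for Plet1. Mgl2 stood at 662 CPM and Ccl24 at 152 CPM in them, against 1286 and 335 CPM in the C1q-positive cells. In the 312 coculture barcodes with at least 2% S100 UMIs and fewer than 5 C1q UMIs, C1qb stood at 4.99 CPM. Without coculture, 90 barcodes were set aside in the same way, at 336 CPM for C1qb and 36.6 CPM for Arg1. The part of droplets with more than 1 cell in these barcodes was not tested.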

How the results depend on the processing

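No paired analysis was possible because each group has 1 library, and for the same reason no replicate could be left out. Over the named genes, 1349 values stayed within their counting interval, 296 moved beyond it, and 4 that were at least 2-fold changed sign. Setting the minimum to 50 CPM or to 10 UMIs cannot move a gene's ratio. Each of these settings gave 179 of the values that stayed, which say nothing about stability. Depth limits the 66 cells most: 3 UMIs correspond to 2.87 CPM. Coculture counts of C1q-positive cells ran from 55 to 79 over the alternative limits. Thinned to 2000 UMIs with a C1q minimum of 2, the cells without coculture numbered 86. With a minimum of 50 CPM, the genes higher and lower were 392 and 368 against the other coculture cells, 558 and 513 against mature dendritic cells, 268 and 346 against C1q-positive cells without coculture and 275 and 329 against macrophages without coculture. With 10 UMIs over both sets as the only minimum, they were 3350 and 2065 against the other coculture cells, 1732 lower against C1q-positive cells without coculture, and 1625 and 1610 against macrophages without coculture; fewer or more genes were tested by construction. Another alternative left out the 51 C1q-positive coculture cells holding other lineages' genes, with no such filter on the sets they were compared with. Without those 51 cells, 1059 genes were higher against C1q-positive cells without coculture, 1028 higher and 1507 lower against macrophages without coculture, and the C1qa share was 27.4%. Among named genes with at least 2-fold ratios, only there did the sign change, in 4 cases: log2 ratios were -1.31 for Arg1 against the other coculture cells, 0.075 for Ciita against mature dendritic cells, and -1.23 for Pf4 and -0.65 for Abca1 against C1q-positive cells without coculture. Without cells holding T cell or basophil genes, an alternative chosen after seeing the data, the C1qa share was 33.5%. The cause was not tested.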
